A study of Arabidopsis thaliana with 8 samples.

Results

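AT2G47780 and AT5G22460 are Arabidopsis thaliana genes whose transcripts were higher in leaves sprayed with abscisic acid (ABA) than in mock-sprayed leaves, in the wild type and in the abh1 mutant. They were chosen by their measured ABA effects, which were high in both genotypes. The pair was taken as a small rubber particle protein gene and an alpha/beta hydrolase gene. Because of that choice the ABA effects describe the genes and are not tested here. Each had 1 probe set, and they are 2 of 13356 genes with a probe set of their own in the annotation used. Both passed the filter on low signal.

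Transcripts were measured on 8 Affymetrix arrays, 2 for each of 4 groups, in green tissue of 4-week-old plants. The groups were abh1 leaves 4 h after a spray with 50 µM ABA, abh1 leaves after a mock spray of water, Columbia (Col-0) wild-type leaves (WT) after ABA, and WT leaves after the mock spray. abh1 lacks function of the large subunit of the nuclear complex that binds messenger RNA caps, and ABA is the hormone that plants make when water is short. Each array held RNA pooled from 3 biological replicates, so the spread between arrays is not that between plants. Precision is limited by having 2 arrays a group. The abh1 transcript itself was not analysed here, since no probe set carried its name.

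AT2G47780 belongs to the small rubber particle protein family. In rubber-producing plants proteins of this family coat rubber particles, and in Arabidopsis, which makes no rubber, the family is known from the surface of lipid droplets, the organelles in which cells store neutral lipids such as triacylglycerol. Lipid droplets are abundant in oil seeds and are also found in leaves, where they are known to increase under drought and other stress. AT5G22460 encodes a protein of the alpha/beta hydrolase superfamily, a large group that shares one fold and includes lipases, esterases and hormone receptors. The annotation used holds gene names but no descriptions, so it gives no substrate for AT5G22460.

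The values are MAS5 signal, the Affymetrix software's summary of each probe set on a linear scale. The median signal of an array was 131 to 160 on the 4 arrays numbered replicate 1 and 180 to 216 on the 4 numbered replicate 2. The 2 WT ABA arrays differed from each other: their log2 signals correlated at 0.859, against 0.919 to 0.952 for the arrays of the other groups. Replicate 2 correlated with WT mock replicate 2 at 0.958, and replicate 1 with WT mock replicate 2 at 0.839 and with abh1 mock replicate 2 at 0.815, the lowest value of all pairs. The WT ABA effects below are therefore also given without either array. RCA, the activase of the carbon-fixing enzyme of leaves, lay at percentile 99.5 or above on all 8 arrays, and it was the only 1 of 10 mesophyll markers with a named probe set. The pollen marker AT5G45880 was below the array median on 8 of 8. Of 4 guard cell markers 2 were measured, none at 0. Their summed signal was 638 to 1123 on ABA arrays and 1217 to 2155 on mock arrays, lower after ABA without overlap. The sum was mostly AT1G22690, with means of 808 in abh1 ABA, 1487 in abh1 mock, 649 in WT ABA and 1275 in WT mock leaves. The means of FMA were 227, 331, 217 and 249 in the same order. How many of all probe sets were lower after ABA without overlap was not counted. The 3' to 5' signal ratio of the actin control transcript, a sign of RNA integrity, was 2.27 to 2.97 on ABA arrays. It was 6.99 on WT mock replicate 1 and 4.41 on abh1 mock replicate 1. On replicate 2 it was 2.16 in WT mock and 2.27 in abh1 mock leaves. The ratio of GAPDH was 1.32 and 1.28 on abh1 ABA arrays, against 1.39 and 1.23 on abh1 mock arrays. In WT it was 1.73 and 1.57 on ABA arrays, against 1.04 and 1.17 on mock arrays. It was thus higher on both WT ABA arrays, with only 2 arrays on each side. The part of the guard cell markers and of these ratios in the results was not tested.

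AT2G47780 was low in mock-sprayed leaves of both genotypes and well above the array median after ABA. Its signal was 781 and 689 in abh1 ABA leaves (replicates 1 and 2), against 64.2 and 73.0 in abh1 mock leaves. In WT it was 1585 and 465 in ABA leaves, against 62.9 and 121 in mock leaves. All 4 ABA arrays lay above all 4 mock arrays, and the lowest ABA signal was 3.86 times the highest mock signal. Of the 13652 probe sets tested, 3.88% had all ABA arrays above all mock arrays, and 9 of them, AT2G47780 included, had a gap that large between the lowest ABA and the highest mock signal. The mock signals stood between percentiles 26.9 and 37.3 of their arrays and the ABA signals between 69.4 and 89.7.

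**Figure D1:**
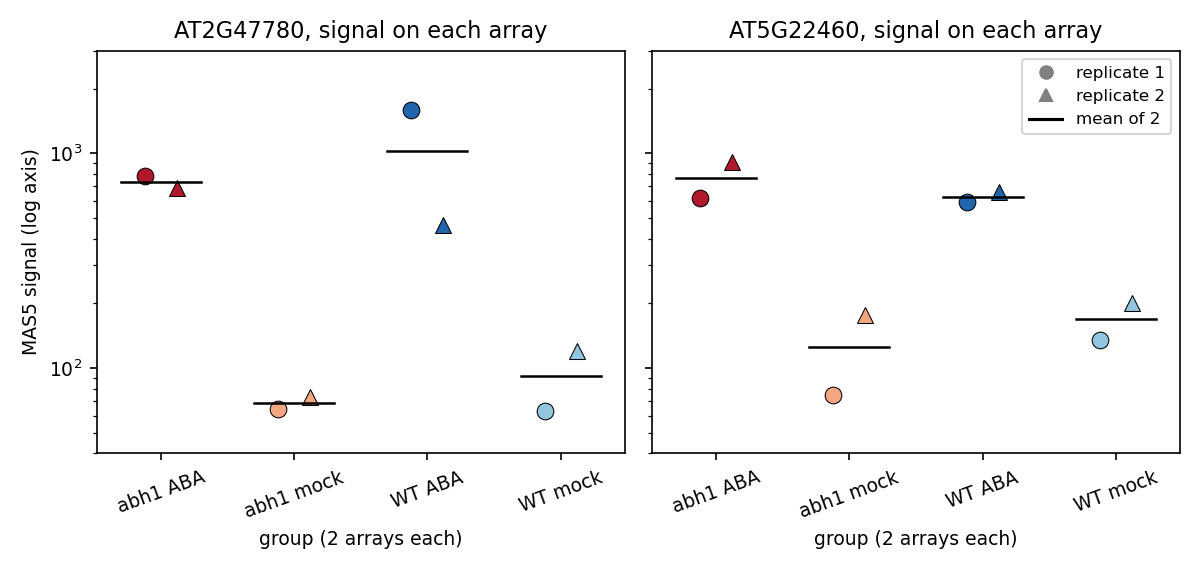
MAS5 signal (log axis) of AT2G47780 (left) and AT5G22460 (right) on each of the 8 arrays; circles are replicate 1, triangles replicate 2 and bars the mean of the 2 arrays of a group. In both genes every ABA array lies above every mock array, and the widest split within an ABA group is that of AT2G47780 in WT, at 1585 and 465.

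Ordered by mean signal, AT2G47780 was highest in WT ABA leaves (1025 ± 792, SD, n = 2), followed by abh1 ABA (735 ± 65.3), WT mock (91.7 ± 40.7) and abh1 mock leaves (68.6 ± 6.25). The 2 ABA groups overlapped, with both abh1 arrays between the 2 WT arrays, and so did the mock groups. The split in WT ABA leaves was 3.41-fold between its 2 arrays, against 1.13-fold in abh1 ABA leaves. In a transcript measured on bulk leaf tissue, more RNA per cell and more cells of one type cannot be told apart.

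AT5G22460 stood below the array median on the mock arrays, at 0.46 to 0.98 times that median, and was higher on every ABA array. Its signal was 618 and 913 in abh1 ABA leaves, against 74.4 and 177 in abh1 mock leaves. In WT it was 595 and 657 in ABA leaves, against 135 and 201 in mock leaves. The lowest ABA signal was 2.96 times the highest mock signal, a gap that 18 of the 13652 probe sets reached or passed, AT5G22460 included. The mock signals stood between percentiles 35.8 and 49.6 of their arrays, and the ABA signals between 77.2 and 83.6.

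The order of the AT5G22460 means was abh1 ABA (766 ± 208, SD, n = 2), WT ABA (626 ± 43.9), WT mock (168 ± 46.8) and abh1 mock leaves (126 ± 72.5). Neighbours within a treatment overlapped here too. The higher array of each group was replicate 2 in 4 of 4 groups, with a mean log2 shift of 0.60 between the numbers, whereas AT2G47780 was higher on replicate 2 in 2 of 4 groups, with a shift of -0.23. The array medians were also higher on replicates 2, and their part in the shift was not tested.

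For fold changes an offset of 9.38 was added to each signal before log2, which understates changes of low signals. On that scale AT2G47780 was 9.54-fold higher after ABA in abh1 (log2 3.25 ± 0.56, SE) and 8.97-fold higher in WT (log2 3.17 ± 0.56). AT5G22460 was 6.09-fold higher in abh1 (log2 2.61 ± 0.43) and 3.64-fold higher in WT (log2 1.86 ± 0.43). Ranked by the ABA effect averaged over both genotypes, AT2G47780 (log2 3.21 ± 0.40) was number 13 and AT5G22460 (log2 2.24 ± 0.31) number 34 of 13652 probe sets. The median ABA effect over all of these was -0.05 in abh1 and -0.09 in WT.

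Taken within each replicate number, the ABA effect of AT2G47780 varied more in WT than in abh1. In abh1 the log2 ABA effect of AT2G47780 was 3.43 in replicate 1 and 3.08 in replicate 2, and that of AT5G22460 was 2.91 and 2.31. In WT the effect of AT2G47780 was 4.46 in replicate 1 and 1.87 in replicate 2, while AT5G22460 had 2.07 and 1.66. AT2G47780 thus ranked 12 among all probe sets in WT replicate 1 and 59 in WT replicate 2, and AT5G22460 ranked 117 and 94. In abh1 the ranks were 16 and 16 for AT2G47780 and 34 and 41 for AT5G22460. Without WT ABA replicate 2 the WT effect was 4.04 for AT2G47780 and 1.79 for AT5G22460, and without WT ABA replicate 1 it was 2.29 and 1.94.

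**Figure D2:**
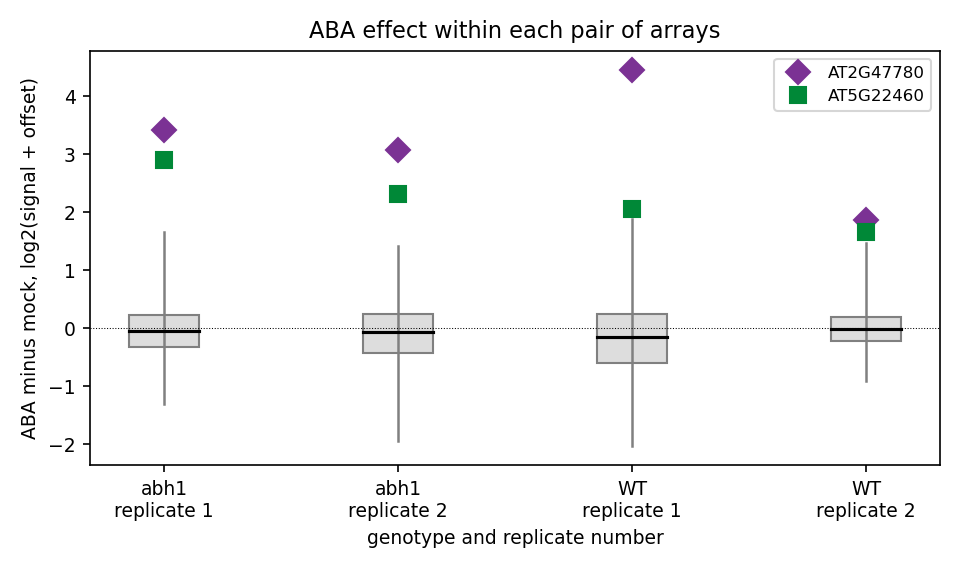
ABA minus mock on the log2(signal + offset) scale within each genotype and replicate number. Diamonds are AT2G47780, squares AT5G22460; grey boxes hold the middle 50% of 13652 probe sets, black bars their median, and grey lines run from the 1st to the 99th percentile. Both genes lie above the 99th percentile in each of the 4 pairs, and AT2G47780 ranges from 1.87 to 4.46.

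The spread of single probe sets was itself uneven over these pairs. The 99th percentile of the log2 ABA effect was 1.66 and 1.42 in abh1 replicates 1 and 2, and 1.89 and 1.47 in WT replicates 1 and 2. Both genes exceeded it in each of the 4 pairs.

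The ABA effects of the 2 genotypes were set against each other as values, since both had served to choose the genes. For AT2G47780 the effect in abh1 minus that in WT was log2 0.09 ± 0.79 (SE), made up of -1.04 in replicate 1 and 1.21 in replicate 2, so the replicates pointed in opposite directions. It was -0.79 without WT ABA replicate 2, 0.96 without WT ABA replicate 1 and -0.33 without WT mock replicate 2. For AT5G22460 it was 0.74 ± 0.61, with 0.84 in replicate 1 and 0.65 in replicate 2, both toward a larger effect in abh1. With the replicate number also in the fit, the SE was 0.74 for AT2G47780 and 0.39 for AT5G22460. The difference for AT5G22460 was 0.17 without abh1 mock replicate 1, whose signal of 74.4 was the lowest of the 8 arrays. Without abh1 mock replicate 2 it was 1.32. It was 0.47 without either abh1 ABA replicate 2 or WT mock replicate 2.

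The mutant was compared with WT over both treatments, a contrast that had no part in choosing the genes. Neither gene differed detectably between the genotypes. AT2G47780 had an averaged abh1 effect of log2 -0.27 ± 0.40 (SE; 95% interval -1.19 to 0.65), with limma adjusted p = 0.99998, and 0.872 in a fit that also holds the replicate number, called the replicate block. AT5G22460 had -0.11 ± 0.31 (95% interval -0.82 to 0.60), with limma adjusted p = 0.99998 and 0.909 with the block. With the block the intervals were -1.13 to 0.59 for AT2G47780 and -0.56 to 0.34 for AT5G22460. All of these intervals span 0. By limma 0 of the 2 genes were called, where 0.0146% of all probe sets were, and with the block also 0 of 2, where 0.513% were. The unadjusted limma p was 0.514 for AT2G47780 and 0.728 for AT5G22460.

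Split by treatment, AT2G47780 differed between abh1 and WT by log2 -0.23 after ABA (-1.01 in replicate 1 and 0.56 in replicate 2) and by -0.32 after mock (0.03 and -0.66). AT5G22460 differed by 0.26 after ABA (0.05 and 0.47) and by -0.48 after mock (-0.79 and -0.18). The averaged effect of AT2G47780 was 0.17 without WT ABA replicate 1 and -0.71 without WT ABA replicate 2, so its sign rested on that group.

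Other genes of lipid droplets and lipid metabolism gave a setting for the pair. Proteins on the droplet surface, enzymes that build or break down triacylglycerol, enzymes of fatty acid beta-oxidation, genes of the cuticle and its waxes, cis-prenyltransferases that make polyprenyl chains, relatives in the alpha/beta hydrolase fold and the neighbours of both genes on the chromosome were listed. Of 101 entries 26 had a named probe set and 17 passed the signal filter, so most listed genes were not assessed. The filter was passed by 5 of 21 droplet entries, 3 of 15 for triacylglycerol and 2 of 13 for beta-oxidation. Of 26 cuticle and wax entries it was passed by 1, WSD1. Loci without a gene name in the annotation are given by their code, and their place in a list comes from general knowledge of Arabidopsis. In the ABA effect averaged over both genotypes, limma called 0 of the 17 (2 had an unadjusted p under 0.05), where 0.110% of all probe sets were called. With the replicate block it called 1, the wax gene WSD1, where 2.31% were called. The median effect of the 17 was log2 0.07, against -0.08 for all probe sets.

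WSD1 (AT5G37300) encodes a wax ester synthase that also has diacylglycerol acyltransferase activity, and its esters are part of the stem wax. Its signal was 1364 and 1001 in abh1 ABA leaves, against 191 and 146 in abh1 mock leaves. In WT it was 1695 and 501 in ABA leaves, against 259 and 243 in mock leaves. Every ABA array was above every mock array, and WT ABA replicate 2 was again the lowest of the ABA arrays, as it was for AT2G47780. The averaged ABA effect was 4.89-fold (log2 2.29 ± 0.37, SE; higher in 4 of 4 pairs), with limma adjusted p = 0.0745 and 0.00865 with the block. Without the block, limma adjusted p was 0.224 after median centring and 0.0621 with a stricter filter on low signal. The averaged effect was log2 2.72 without WT ABA replicate 2 and 1.85 without WT ABA replicate 1. Leaving out any 1 of the other 6 arrays gave 2.18 to 2.4.

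The small rubber particle protein family had 3 loci on the array, all past the filter. AT1G67360 had a signal of 2094 and 1617 in abh1 ABA leaves, against 1459 and 1305 in abh1 mock leaves, and 2368 and 1570 in WT ABA leaves, against 1053 and 998 in WT mock leaves. All its ABA arrays were above all its mock arrays, as in 3.88% of all probe sets, by much less than in AT2G47780. The averaged effect was 1.58-fold (log2 0.66 ± 0.20; higher in 4 of 4 pairs; limma adjusted p = 0.401, and 0.0619 with the block). Without WT ABA replicate 2 the averaged effect of AT1G67360 was log2 0.81. AT3G05500 had 1342 and 800 in abh1 ABA leaves, against 1743 and 787 in abh1 mock leaves, and 1498 and 880 in WT ABA leaves, against 1405 and 601 in WT mock leaves. There the groups overlapped and replicate 1 was higher than replicate 2 throughout, with an averaged ABA effect of log2 0.07 ± 0.39 (limma adjusted p = 0.968). The differences between the 3 family members in their ABA effects were not tested.

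Of the other 7 droplet loci with a probe set, 3 passed the filter and were not called. The averaged ABA effect was log2 0.34 ± 0.18 for AT5G16550, 0.58 ± 0.30 for AT3G14360 and -0.33 ± 0.34 for AT4G10790, with limma adjusted p of 0.659, 0.649 and 0.789. The oleosin gene OLEO3, whose product coats seed oil bodies, stayed below the array median on all 8 arrays, and so did AT3G01570, AT1G23240 and AT5G16460. Lipid droplet members other than AT2G47780 were 4 higher and 1 lower of 5 tested, with a median of log2 0.34, against -0.08 for all probe sets. AT3G05500, among the 4, was at 0.07 ± 0.39, and none of the 5 was called. The share of all probe sets that were higher was not counted.

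Among genes of triacylglycerol metabolism, the lipase SDP1, which starts oil breakdown in seedlings, was at log2 -0.27 ± 0.42 after ABA, AT4G24160 at 0.01 ± 0.19 and AT1G27480 at -0.15 ± 0.23 (limma adjusted p 0.867, 0.996 and 0.861). In beta-oxidation, which shortens fatty acids in peroxisomes, AIM1 was at -0.12 ± 0.40 and SDRB at 0.42 ± 0.24 (0.936 and 0.672). The relatives tested in the alpha/beta hydrolase fold were 4 carboxylesterase and gibberellin receptor genes, and none was called. The carboxylesterase CXE16 was at 0.12 ± 0.22. The gibberellin receptors GID1A, GID1B and GID1C were at 0.07 ± 0.24, -0.07 ± 0.38 and 0.10 ± 0.23. Limma adjusted p for the 4 was from 0.885 to 0.964. Other genes of this large superfamily were not listed as relatives, so it was not surveyed. The cis-prenyltransferase list had 2 probe sets, and neither passed the filter.

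**Figure D3:**
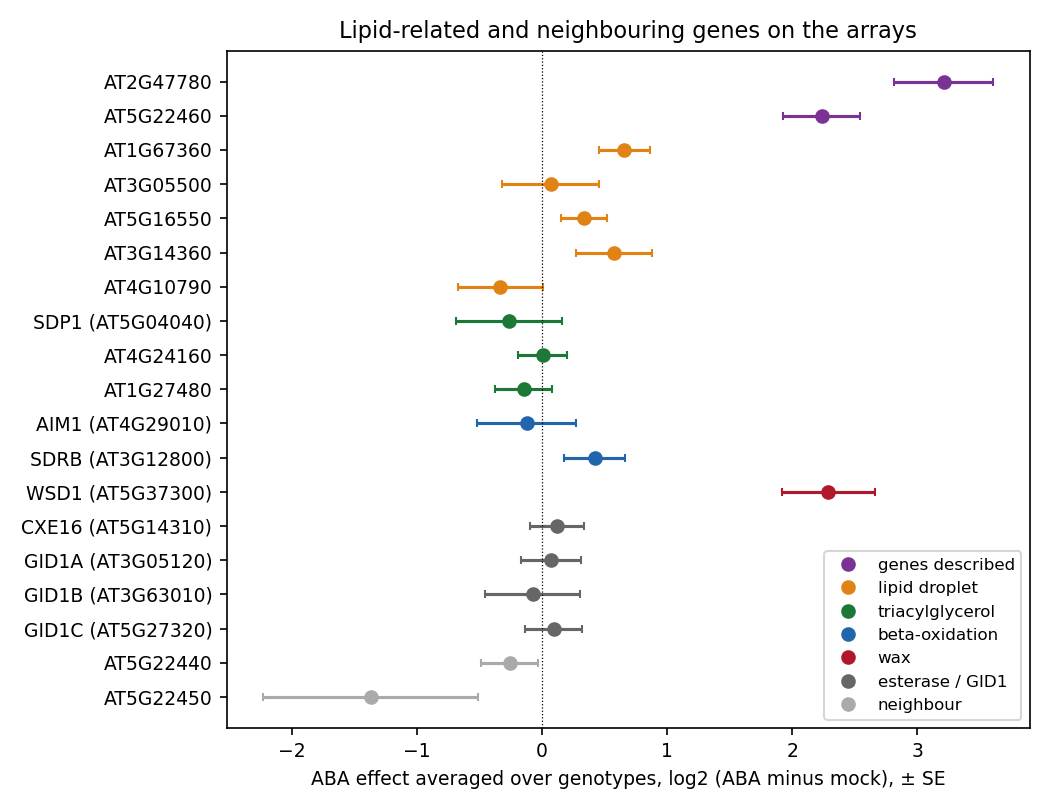
ABA effect averaged over both genotypes (log2, ABA minus mock) for AT2G47780, AT5G22460 and the 17 listed genes that passed the signal filter; points are limma estimates and bars ± 1 SE. AT2G47780 (3.21), WSD1 (2.29) and AT5G22460 (2.24) stand to the right. The other droplet, triacylglycerol and beta-oxidation genes plotted lie between -0.33 and 0.66. WSD1 is the only gene of the wax list that could be plotted.

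The chromosomal neighbours of AT5G22460 on one side were measured, and neither was called. AT5G22450, the next gene, had 59.1 and 38.0 in abh1 ABA leaves, against 130 and 393 in abh1 mock leaves, and 14.97 and 410 in WT ABA leaves, against 103 and 224 in WT mock leaves. It varied widely between arrays of a group, and its averaged effect was log2 -1.37 ± 0.86 (limma adjusted p = 0.689). Without WT ABA replicate 2 that effect was log2 -2.39. AT5G22440 was at log2 -0.26 ± 0.23 (limma adjusted p = 0.76). None of the 4 neighbours of AT2G47780 had a named probe set.

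The genes with the most similar profile over the 8 arrays were sought as a description. They were taken from 7381 other probe sets with 1 gene, by Pearson correlation of log2(signal + offset). Genes picked in this way follow AT2G47780 or AT5G22460 over these same arrays. Their rise after ABA was therefore largely fixed by the choice and is not tested here. AT2G47780 was closest to AT4G37220 (0.985), AT3G13672 (0.983), the linker histone gene HIS1-3 (0.974), AT4G27435 (0.974) and AT1G21790 (0.972). AT4G37220 had 425 and 492 in abh1 ABA leaves, against 10.1 and 19.0 in abh1 mock leaves, and 1364 and 305 in WT ABA leaves, against 13.3 and 91.5 in WT mock leaves. It shared with AT2G47780 the high value on WT ABA replicate 1 and the lower one on replicate 2. HIS1-3 is a variant of histone H1 known to be induced by drought. It was higher on all 4 ABA arrays than on all 4 mock arrays, by less than AT2G47780. Given how HIS1-3 was picked, that is not a separate finding. Its signal was 764 and 718 in abh1 ABA leaves, against 494 and 533 in abh1 mock leaves. In WT it was 916 and 802 in ABA leaves, against 493 and 551 in mock leaves. Unlike AT2G47780, HIS1-3 was not lowest among the ABA arrays on WT ABA replicate 2.

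AT5G22460 was closest to AT1G69450 (0.968), AT1G07080 (0.962), AT1G54740 (0.959), AT4G27435 (0.947) and AT1G11380 (0.936). AT1G54740 had 573 and 929 in abh1 ABA leaves, against 175 and 357 in abh1 mock leaves, and 641 and 574 in WT ABA leaves, against 254 and 447 in WT mock leaves. AT4G27435 stood in both sets of 5. The correlation between AT2G47780 and AT5G22460 themselves was 0.913 (Spearman 0.762, n = 8 arrays), place 80 on the list of the first and place 22 on that of the second. After the group means were subtracted it was 0.111. Since ABA effects in both genotypes had served to choose them, a high correlation over the groups was fixed by that choice.

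**Figure D4:**
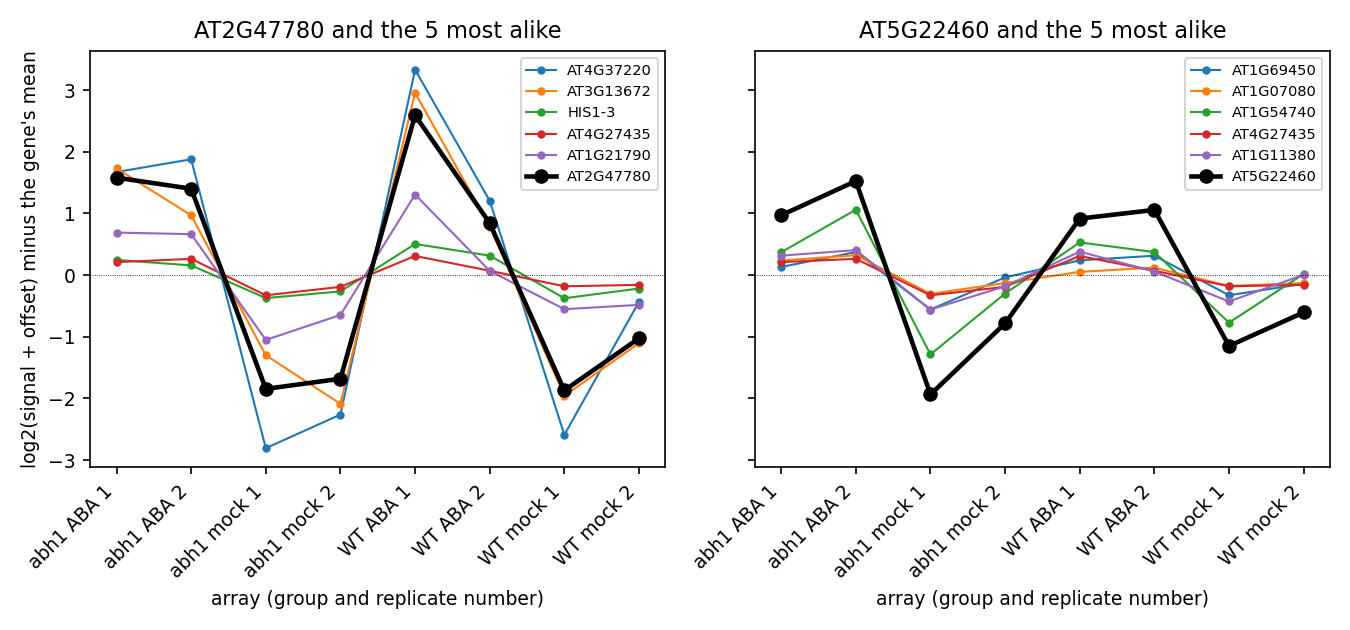
Log2(signal + offset) minus each gene's own mean on the 8 arrays, for AT2G47780 with its 5 most similar genes (left) and AT5G22460 with its own 5 (right); the thick black lines are AT2G47780 and AT5G22460. The left profiles peak on WT ABA replicate 1, and the lines of AT4G37220 and AT3G13672 run closest to that of AT2G47780.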

How the data were processed

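The deposited values are MAS5 signal, made with the Affymetrix software per the labels and the series' design text; the software settings were not recorded there. Trimmed means of the 8 arrays were 500.04 to 500.05, so the signal was used as the authors scaled it. An offset of 9.38 (10th percentile) was added before log2, and probe sets with a mean signal of at least 115 (40th percentile) were kept, control probe sets left out, leaving 13652. limma 3.58.1 in R 4.3.3 was fitted to all 8 arrays with 4 group means (4 residual degrees of freedom) and an intensity trend. Tests were two-sided, Benjamini-Hochberg adjusted over all 13652, at a threshold of 0.05; p-values reflect array-to-array spread alone, possibly technical. Same-numbered arrays deviated together in all 6 pairs of groups (correlations 0.394 to 0.714, above 0.1), so the numbers, which come from the labels, were taken as a pairing and the fit was repeated with the replicate block. For the averaged abh1 effect, data over 13652 probe sets were simulated separately for each fit. Given 100 true changes per size, the fit lacking the block found 13 at log2 1 and 70 at log2 2. The fit holding the block found 39 and 75 in its own data. Whether the block finds more in the same data was therefore not tested. The genes and lists were chosen with earlier results of these data known. The hydrolase relatives were listed after the annotation had been read, because its names matched only 2 hydrolase genes, neither with a named probe set. Genes named are the pair, their neighbours, the 5 most similar to each, and in each list those called or with the smallest p; further list members were named for completeness. Of several probe sets for 1 gene the brightest was used.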

Additional observations from a re-analysis of the deposited data

Results flagged for a closer look

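AT1G27480, on the triacylglycerol list, had ABA effects of log2 0.14 and 0.002 in abh1 replicates 1 and 2, and -0.61 and -0.11 in WT. The signs thus differed, but abh1 replicate 2 hardly changed, with 557 after ABA and 556 after mock. WT mock replicate 1 had the highest signal, 1050.5, and the other arrays lay between 520 and 686. The difference, abh1 minus WT, was log2 0.43 ± 0.45 (SE), with limma adjusted p = 0.99998, and 0.99996 with the replicate block.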

How the results depend on the processing

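Across the 8 other settings, the ABA effects of both genes, their difference between genotypes and the averaged abh1 effects kept their direction. The ABA effect of AT2G47780 in abh1 was log2 2.93 with an offset of 32, beyond its replicate spread; a larger offset shrinks changes of low signals by construction. The averaged abh1 effects passed the threshold in no setting, with adjusted p from 0.442 to 0.99999 for AT2G47780. Leaving out 1 array at a time moved that effect from -0.71 to 0.17 for AT2G47780, reversed (0.17) without WT ABA replicate 1, and from -0.40 to 0.18 for AT5G22460, reversed without WT mock replicate 2 (0.03), abh1 mock replicate 1 (0.18) or abh1 ABA replicate 1 (0.03). The ABA effect of AT5G22460 in abh1 ran from 2.03 to 3.18, and its difference between genotypes from 0.17 to 1.32.

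With the replicate block the probe sets called numbered 17 for the ABA effect in abh1, 1 in WT and 315 averaged, 70 for the averaged abh1 effect, and 1 among listed genes, against 0, 0, 15, 2 and 0 without it. The block changed no other call. The averaged ABA count was 28 with an offset of 32, 1 with no filter, 32 with the 60th percentile filter, 0 with median centring, 48 with quantile normalization and 0 without the trend. The averaged abh1 count was 1 with no filter, with quantile normalization and without the trend. Leaving out 1 array gave 0 to 30 for ABA in abh1, 0 to 135 in WT, 0 to 893 averaged, 0 to 7 for abh1 and 0 to 3 among listed genes, with the highest count each time without WT ABA replicate 2. The cause was not tested. In such fits the lone array is assumed to vary like the other groups.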
